A study of Mus musculus with 8 samples.

Results

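The mesothelium genes described here are Wt1, Msln, Upk3b, Upk1b, Lrrn4, Muc16 and Krt19, set beside the general epithelial keratins Krt8 and Krt18. Every probe set whose deposited gene symbol was one of these 9 names was taken, which gave 15 of the 45037 probe sets tested and 9 of 20737 named genes. The adult mice ate standard chow, and RNA of their abdominal white fat was hybridised to Affymetrix mouse expression arrays. Wild type mice were B10.D2 (Rsl/Rsl) and mutant mice, called rsl here, were B10.D2.PL (rsl/rsl). Rsl stands for regulator of sex-limitation, and the rsl alleles came with the B10.D2.PL strain, so the alleles and any other difference between the strains cannot be told apart. Each of the 4 groups of strain and sex had 2 arrays, and an array held RNA pooled from 5 mice. The labels call the pools of a group biological replicates, and mice within a pool are not resolved, so every p-value measures only the spread between pools. Values are log2 signals, on which a difference of 1 is a doubling.

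Mesothelium is the single layer of flat cells that lines the peritoneal cavity and covers the organs and visceral fat depots in it. It is a simple epithelium that carries keratins, yet it arises from mesoderm and also expresses genes found in few other epithelia. Subcutaneous fat has no such covering. Keratins 8 and 18 pair into the intermediate filaments of nearly all simple epithelia, glandular ones included, and so mark epithelium in general rather than mesothelium.

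The tissue label was checked first. One label field names liver RNA, while the tissue field and the series design name adipose tissue. All 11 measured adipocyte genes lay above background in every array, and their mean ranged from 11.4 to 12.1, lowest in rsl male pool 1. The mean of 6 hepatocyte genes ranged from 4.16 to 6.67 and was highest in wild type males (pools at 5.62 and 6.67). Background, taken as the highest of 22 nonspecific control probe sets of an array, was 3.73 to 4.01, and 62.8% to 71.0% of probe sets exceeded it. The pools of a group correlated across probe sets at 0.988 in wild type males, 0.998 in wild type females, 0.989 in rsl males and 0.997 in rsl females. The male pools also held RNA of genes known from other organs. The mean of 11 genes of epididymal principal cells was 6.72 and 5.14 in the wild type pools and 12.0 and 11.5 in the rsl pools of males, against 3.80 to 4.0015 in females. The mean of 10 sperm and spermatid genes was 4.87 to 6.81 in males and 3.77 to 3.84 in females. In females, the mean of 6 skeletal muscle genes was 5.63 to 8.14, against 4.27 to 4.69 in males. These levels moved with sex as the members did, and their part in the results below was not tested.

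RefSeq promoters (assembly GRCm38.p6, 250 bases before to 50 bases after the gene start) matched 5 of the 9 members. The keratin pair is shown because its signals moved together, and Upk3b because it moved the other way. All are written in the direction of the gene, and capitals mark motif matches.
Krt8 (chr15:102004293-102004592, minus strand): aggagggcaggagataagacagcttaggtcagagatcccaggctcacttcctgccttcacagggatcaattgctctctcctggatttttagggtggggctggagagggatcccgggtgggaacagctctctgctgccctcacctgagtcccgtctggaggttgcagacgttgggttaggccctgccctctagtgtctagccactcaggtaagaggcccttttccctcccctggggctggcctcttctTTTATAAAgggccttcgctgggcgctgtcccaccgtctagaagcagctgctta
Krt18 (chr15:102027966-102028265, plus strand): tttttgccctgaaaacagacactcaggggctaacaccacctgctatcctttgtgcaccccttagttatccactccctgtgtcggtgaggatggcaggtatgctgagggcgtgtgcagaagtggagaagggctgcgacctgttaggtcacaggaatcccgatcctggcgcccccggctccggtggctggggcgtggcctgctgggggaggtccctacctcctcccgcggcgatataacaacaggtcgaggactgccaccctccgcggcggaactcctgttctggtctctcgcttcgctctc
Upk3b (chr5:136038246-136038545, plus strand): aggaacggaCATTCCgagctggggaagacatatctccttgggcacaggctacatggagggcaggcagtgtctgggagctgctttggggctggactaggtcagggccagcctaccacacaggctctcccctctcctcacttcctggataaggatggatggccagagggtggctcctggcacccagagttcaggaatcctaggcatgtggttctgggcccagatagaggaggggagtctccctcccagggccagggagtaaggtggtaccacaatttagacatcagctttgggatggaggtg
The starts of Krt8 and Krt18 lie 23874 bases apart on chromosome 15. The motifs searched on both strands were the TATA box TATAAA, the GC box GGGCGG, the TEAD motif GGAATG, the AP-1 motif TGANTCA and the EGR and WT1 element GCGGGGGCG. The capitals of Krt8 are 2 overlapping TATAAA matches, 1 on each strand, in bases 248 to 255 of its window, and 13.6% of 32851 promoters hold that motif. These matches begin 3 and 1 bases before the annotated gene start and run across it, so their place does not mark them as a working TATA box. The capitals of Upk3b are GGAATG on the minus strand at bases 10 to 15, a motif held by 14.7% of promoters. Lrrn4 held GGAATG at bases 55 to 60. None of these letters occurred in the windows of Krt18 and Muc16, and the GC box, the AP-1 motif and the EGR and WT1 element, held by 35.7%, 7.81% and 2.91% of promoters, occurred in none of the 5. A match describes letters and is not evidence of a bound factor.

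All 9 member genes were measured above background in every array. The smallest margin over background was 1.06, for Muc16. The 6 mesothelial genes Wt1, Msln, Muc16, Upk3b, Upk1b and Lrrn4 were lower in male than in female fat, by 1.67-fold to 3.50-fold averaged over the strains. The keratins Krt8 and Krt18 went the opposite way, 4.94-fold and 8.61-fold higher in males. Krt19, a keratin of mesothelium and of many other epithelia, gave sex differences of opposite sign in the strains. None passed in the model of all 8 arrays before any rescaling. The difference between the strains passed the threshold for Muc16 alone in the model of all 8 arrays.

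**Figure D1:**
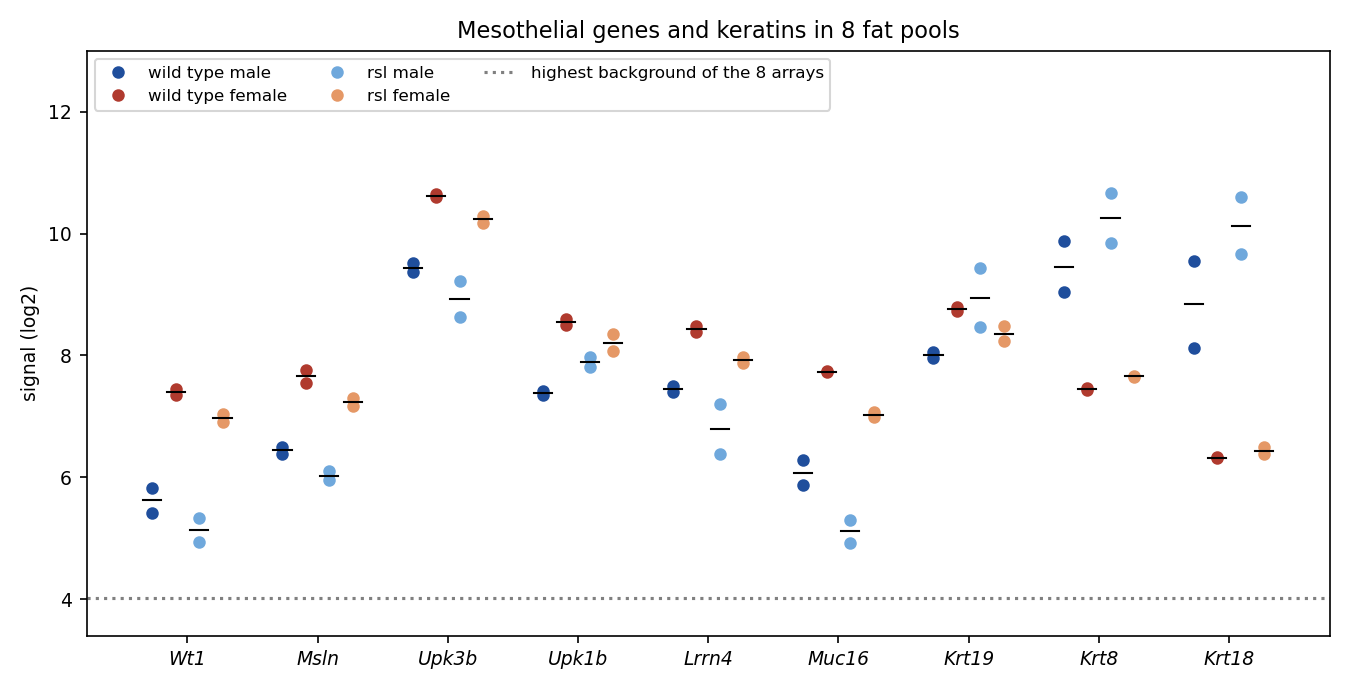
Log2 signal of the main probe set of each member gene in the 8 arrays, with 2 pools in each of the 4 groups, the group mean as a black line and the highest background of the arrays as a dotted line. For Wt1, Msln, Upk3b, Upk1b, Lrrn4 and Muc16 every male pool sits below every female pool, for Krt8 and Krt18 every male pool sits above, and for Krt19 the sexes overlap.

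Wt1 encodes a zinc finger transcription factor of mesothelium and of the progenitor cells of visceral fat, and it also marks podocytes and Sertoli cells. Its log2 signal was 5.42 and 5.82 (wild type) and 4.94 and 5.33 (rsl) in males, against 7.45 and 7.35 (wild type) and 7.03 and 6.91 (rsl) in females. The highest male pool lay 1.09 below the lowest female pool. The male minus female difference averaged over strains was -1.81 ± 0.12 (SE of the limma model), with a Benjamini-Hochberg adjusted p of 0.00039. It was as large in wild type, at -1.78, as in rsl mice, at -1.83. Genes of Sertoli cells, which express Wt1, were examined beside it. The mean of 9 such genes was 4.18 to 4.67 in males and 3.73 to 3.88 in females. Averaged over strains, Cldn11, Sox9 and Inha were called higher in males and 6 did not pass, where 9.62% of all genes were higher. From 3 to 6 of the 9 lay at or below background in each array. Of 5 podocyte genes 1 was lower in males, where 11.4% of all genes were lower, and 4 did not pass. The part of either cell type in the Wt1 difference was not tested.

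Msln and Muc16 encode a surface pair: mesothelin is a glycoprotein anchored to the membrane by a lipid, and it binds the large membrane mucin encoded by Muc16, whose human protein carries the CA125 antigen. Msln read 6.50 and 6.38 (wild type) and 5.95 and 6.10 (rsl) in males, against 7.76 and 7.55 (wild type) and 7.18 and 7.30 (rsl) in females. Muc16 read 6.28 and 5.87 (wild type) and 4.92 and 5.30 (rsl) in males, against 7.74 and 7.72 (wild type) and 6.99 and 7.06 (rsl) in females. For both genes the groups stood in the order wild type female, rsl female, wild type male and rsl male, and no pool of one group reached into the next. The average sex difference was -1.22 ± 0.07 for Msln (limma adjusted p = 0.000318) and -1.79 ± 0.12 for Muc16 (limma adjusted p = 0.000386). That is 2.32-fold lower in males for Msln and 3.46-fold lower for Muc16.

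Upk3b and Upk1b belong to the uroplakins, membrane proteins named for the plaques of the bladder lining, and both are also known from mesothelium. Upk1b is a tetraspanin. Upk3b read 9.36 and 9.51 (wild type) and 8.64 and 9.23 (rsl) in males, against 10.65 and 10.60 (wild type) and 10.18 and 10.29 (rsl) in females. Its sex difference was -1.24 ± 0.13 (limma adjusted p = 0.00183), and a further probe set of the gene gave -1.38. Upk1b read 7.36 and 7.42 (wild type) and 7.97 and 7.81 (rsl) in males, against 8.51 and 8.60 (wild type) and 8.07 and 8.35 (rsl) in females. The sexes did not overlap for either gene, but the rsl males stood only just below the rsl females for Upk1b. Its difference was -1.17 ± 0.11 in wild type mice (limma adjusted p = 0.00396) and -0.32 ± 0.11 in rsl mice (limma adjusted p = 0.117). Relative to the mean of the adipocyte genes of each array, the Upk1b difference in rsl mice was 0.08 with the sign turned, and still not past the threshold. The 3 further probe sets of Upk1b gave -1.01 to -1.21 in wild type and -0.11 to -0.35 in rsl mice. Markers of bladder lining were low: the mean of Upk1a, Upk2, Upk3a, Krt20 and Krt13 was 4.09 to 4.30 in all arrays, none of the 5 differed by sex, and Krt20 was at or below background in every group.

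Lrrn4 encodes a membrane protein with leucine-rich repeats that serves as a mesothelial marker in the mouse. It read 7.39 and 7.50 (wild type) and 6.38 and 7.21 (rsl) in males, against 8.38 and 8.48 (wild type) and 7.98 and 7.87 (rsl) in females. The rsl male pools were 0.83 apart, the widest gap within a group among the 6 mesothelial genes. The average sex difference was -1.06 ± 0.17 (limma adjusted p = 0.00814). Within strains it passed the threshold in rsl mice, at -1.13 ± 0.24 (limma adjusted p = 0.0267), and not in wild type mice, at -0.98 ± 0.24 (limma adjusted p = 0.0769). The sex difference in rsl mice minus that in wild type mice was -0.14 ± 0.33 and did not pass (limma adjusted p = 0.917). Relative to the adipocyte genes the sex difference passed in both strains, at -0.98 in wild type mice (limma adjusted p = 0.0116) and -0.73 in rsl mice (limma adjusted p = 0.0376).

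Krt8, the type II partner of the simple epithelial pair, read 9.88 and 9.03 (wild type) and 10.67 and 9.85 (rsl) in males, against 7.42 and 7.47 (wild type) and 7.65 and 7.66 (rsl) in females. Krt18, its type I partner, read 9.55 and 8.12 (wild type) and 10.60 and 9.66 (rsl) in males, against 6.33 and 6.31 (wild type) and 6.38 and 6.49 (rsl) in females. Females of both strains were close together, and males were higher and far more scattered, with pool 1 above pool 2 in either strain. The average sex difference was 2.30 ± 0.23 for Krt8 (limma adjusted p = 0.00171) and 3.11 ± 0.33 for Krt18 (limma adjusted p = 0.00208). For each gene the SE and p rest on 1 spread shared by all groups. The SD between the pools of a group was 0.58 to 1.01 in males and 0.0056 to 0.0835 in females. The 2 further probe sets of Krt8 gave 2.22 and 2.39. Krt18 was higher in males by 2.52 in wild type and by 3.69 in rsl mice, which is 5.73-fold and 12.9-fold. The Krt18 minus Krt8 signal, which can be read only as a change between arrays, was -1.10 to -1.28 in the female pools and -0.07 to -0.91 in the male pools.

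Krt19, a type I keratin that can stand in as a partner of Krt8, followed neither pattern. It read 8.06 and 7.96 (wild type) and 9.43 and 8.47 (rsl) in males, against 8.73 and 8.79 (wild type) and 8.23 and 8.48 (rsl) in females. Wild type males were the lowest group and rsl males the highest, with rsl male pool 1 far above pool 2. The sex difference was -0.75 ± 0.27 in wild type mice (limma adjusted p = 0.217) and 0.59 ± 0.27 in rsl mice (limma adjusted p = 0.219). Averaged over strains it was -0.08 ± 0.19 (limma adjusted p = 0.826, 95% interval -0.54 to 0.38). Relative to the adipocyte genes it was 0.12, also not past the threshold. On that scale it was -0.75 in wild type mice, not past the threshold, and 0.99 in rsl mice, which passed (limma adjusted p = 0.0497). Without rsl male pool 1 the average was -0.32 and the difference in rsl mice 0.11. Without rsl male pool 2 they were 0.16 and 1.07. Each of these fits rests on a lone rsl male pool, taken to vary like the other groups.

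Counted over the 9 genes, 6 were lower and 2 higher in males in the average of the strains, where 11.4% of all named genes were lower and 9.62% higher. In wild type mice 5 were lower and 2 higher, against 2.79% and 2.44% of all genes, and in rsl mice 5 were lower and 2 higher, against 9.15% and 6.49%. The median difference of the 7 mesothelium genes in the average was -1.22, against -0.01 over all genes. In this bulk tissue, fewer cells of a type and less RNA per cell cannot be told apart. The count in the average was 8 or 9 in each fit that left out 1 array. Such a fit takes the pool left alone in its group to vary like the other groups. The count of 7 in wild type mice was 2 without wild type female pool 1, 1 without wild type female pool 2, and 4 without wild type male pool 1, rsl female pool 1 or rsl female pool 2. The count of 7 in rsl mice was 3 without either rsl female pool.

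**Figure D2:**
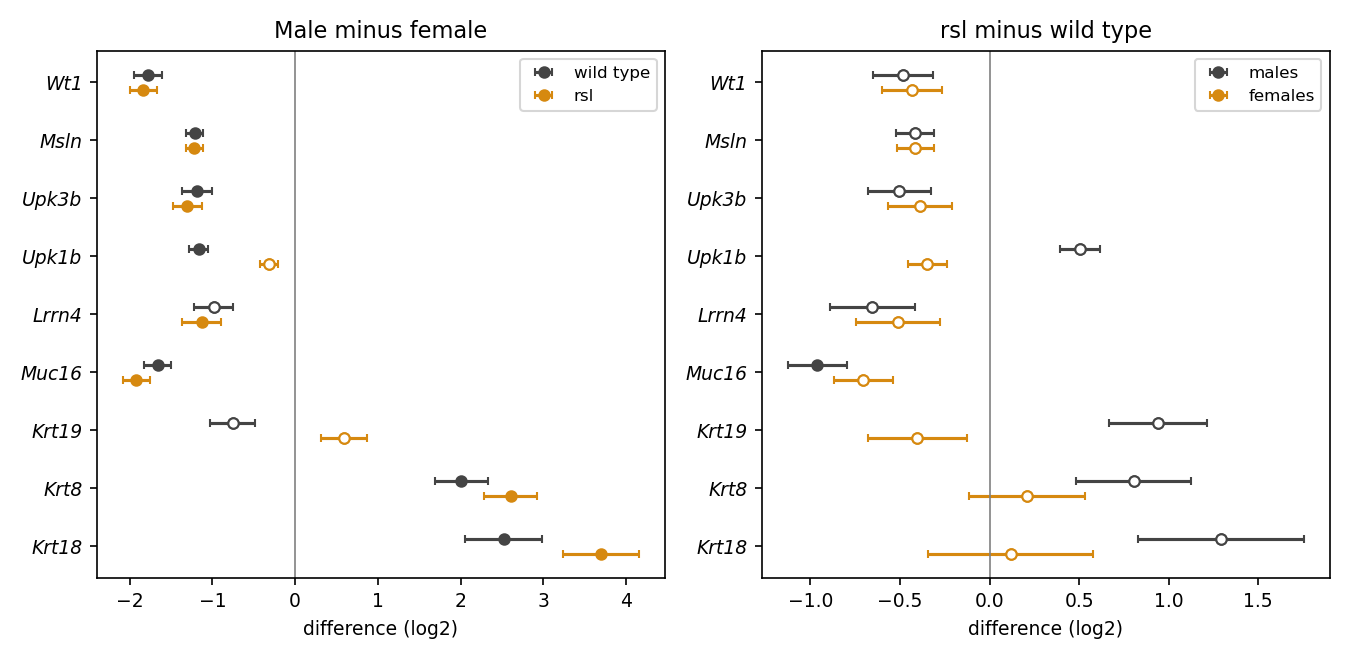
Log2 differences of the 9 member genes with the moderated SE of the limma model as bars. The left panel gives the sex difference (male minus female) for each strain, the right panel gives rsl minus wild type in males and in females, and open symbols did not pass an adjusted p of 0.05. The sex differences run from -1.92 for Muc16 to 3.69 for Krt18, both in rsl mice, while in the right panel only Muc16 in males is past the threshold.

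The comparison of rsl with wild type mice asks how the members differ between the strains. In males, Muc16 was lower in rsl mice by 0.96 ± 0.16 on the log2 scale (limma adjusted p = 0.0489), the 1 member called where 1.07% of all genes were lower and 0.704% higher. The other members did not pass. Lrrn4 gave -0.65, Upk3b -0.50, Wt1 -0.48 and Msln -0.42. The remaining members had the opposite sign, with Krt18 at 1.29, Krt19 at 0.94, Krt8 at 0.80 and Upk1b at 0.50. The Muc16 call is narrow. It was lost in 7 of the 8 fits that left out 1 array (all but that without rsl male pool 2), with adjusted p-values of 0.064 to 0.139. It was also lost in a fit of the male arrays alone, with a block for the replicate number, after quantile normalization, with the mean of a gene's probe sets and relative to the adipocyte genes, where the difference was -0.61. That scaling shifts every strain difference in males by 0.35 and every sex difference in rsl mice by 0.40. Without rsl male pool 2, 8 members passed, 5 lower and 3 higher, with the spread supplied by the other groups. In that fit 12.2% of all genes were lower and 7.17% higher. The remaining rsl male pool had the lowest mean of the adipocyte genes, 11.4, and of 6 endothelial genes, 6.57, where the other arrays had 7.52 to 8.06. Across the male pools the 6 endothelial and the 6 macrophage genes all had negative strain differences, with medians of -0.84 and -0.56, and their part in the member differences was not tested.

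In females none of the 9 members passed in the model of all arrays, where limma called 0.270% of genes in either direction. The 7 mesothelium genes were lower in rsl females by 0.35 for Upk1b to 0.70 for Muc16, none past the threshold, while Krt8 gave 0.21 and Krt18 0.12. Their median was -0.41. Genes of other cell types had negative differences as well: all 6 endothelial genes (median -0.46), all 6 macrophage genes (median -0.34) and all 6 skeletal muscle genes (median -1.40), none past the threshold. Their part in the member differences was not tested. The unadjusted 95% intervals of the difference lay below 0 for Wt1, Msln, Upk1b and Muc16. In a fit of the 4 female arrays alone, whose pools lay closer together, limma called 4 members lower in rsl females and none higher, where it called 3.65% of genes lower. These were Muc16 (-0.70 ± 0.07, adjusted p = 0.00397), Lrrn4 (-0.51 ± 0.08, adjusted p = 0.0171), Wt1 (-0.43 ± 0.08, adjusted p = 0.0318) and Upk3b (-0.39 ± 0.08, adjusted p = 0.0372). Averaged over the sexes, Muc16 was lower in rsl mice by 0.83 ± 0.12 (limma adjusted p = 0.0311) and no other member passed, where 1.02% of genes were lower. That count was 0 without either wild type female pool or either rsl female pool, 2 without rsl male pool 1 and 6 without rsl male pool 2, where 16.3% of all genes passed.

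The interaction, which is the strain difference in males minus that in females, passed for none of the 9 members after adjustment, where limma called 0.101% of genes. Upk1b was nearest, at 0.85 ± 0.16 (limma adjusted p = 0.161, 95% interval 0.48 to 1.22). Its 3 further probe sets gave 0.77 to 0.90. Krt19 followed at 1.34 ± 0.39 (limma adjusted p = 0.3, 95% interval 0.43 to 2.26). For both genes every rsl male pool lay above the wild type male pools, and every rsl female pool below the wild type female pools. Without rsl male pool 2, Upk1b and Krt19 passed, in a fit whose spread comes from the other groups and where 3.55% of all genes were called higher. For the other 5 mesothelial genes the interaction ran from -0.26 for Muc16 to 0.00 for Msln.

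A direct comparison of the mesothelial genes with the keratins was made by subtracting the mean of Krt8 and Krt18 in each array and fitting the model again. All 7 mesothelium genes were lower in males relative to that mean. The difference ran from -4.04 for Wt1 to -3.02 for Krt19 in wild type mice and from -5.07 for Muc16 to -2.56 for Krt19 in rsl mice. The limma adjusted p without moderation was 0.0214 for each of the 7 in wild type mice and about 0.00651 in rsl mice. On this scale, however, 95.3% of all genes were lower in males of the wild type strain, and 98.2% in males of the rsl strain, so the 7 calls describe the size of the keratin difference and set these genes apart from few others. No strain difference relative to the keratins passed for any of the 7. Muc16 in males came nearest, at -2.01 ± 0.52 (limma adjusted p without moderation = 0.189). P-values without moderation are given because the subtracted mean puts the same error into every gene, which the moderated model reads as a well-known variance.

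The profiles across arrays show the same contrast. Each gene was centred on its mean over the arrays. The male pools then had mesothelial means of -0.46 and -0.43 (wild type) and -1.05 and -0.68 (rsl), and the female pools 0.90 and 0.87 (wild type) and 0.39 and 0.45 (rsl). The keratin means were 1.40 and 0.26 (wild type) and 2.32 and 1.44 (rsl) in the male pools and -1.44 and -1.43 (wild type) and -1.30 and -1.24 (rsl) in the female pools. The wild type male pools were 1.13 apart in the keratin mean and 0.03 apart in the mesothelial mean. In rsl males all 11 epididymis genes were higher in pool 1, the pool with the higher keratin mean. In wild type males 4 of the 11 were higher in pool 1 and 7 in pool 2. The mean of the 11 was 6.72 in pool 1 and 5.14 in pool 2. Crisp1, at 12.60 in pool 1 against 7.14, had the narrowest gap of the 4. Lcn8, at 5.45 in pool 2 against 3.84, had the widest gap of the 7. Adam28 and Cst11, among the 7, were at or below background in both wild type male pools. Crisp1, Lcn8, Adam28 and Cst11 were named after their values were seen. The part of the epididymal RNA in the keratin signals was not tested.

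**Figure D3:**
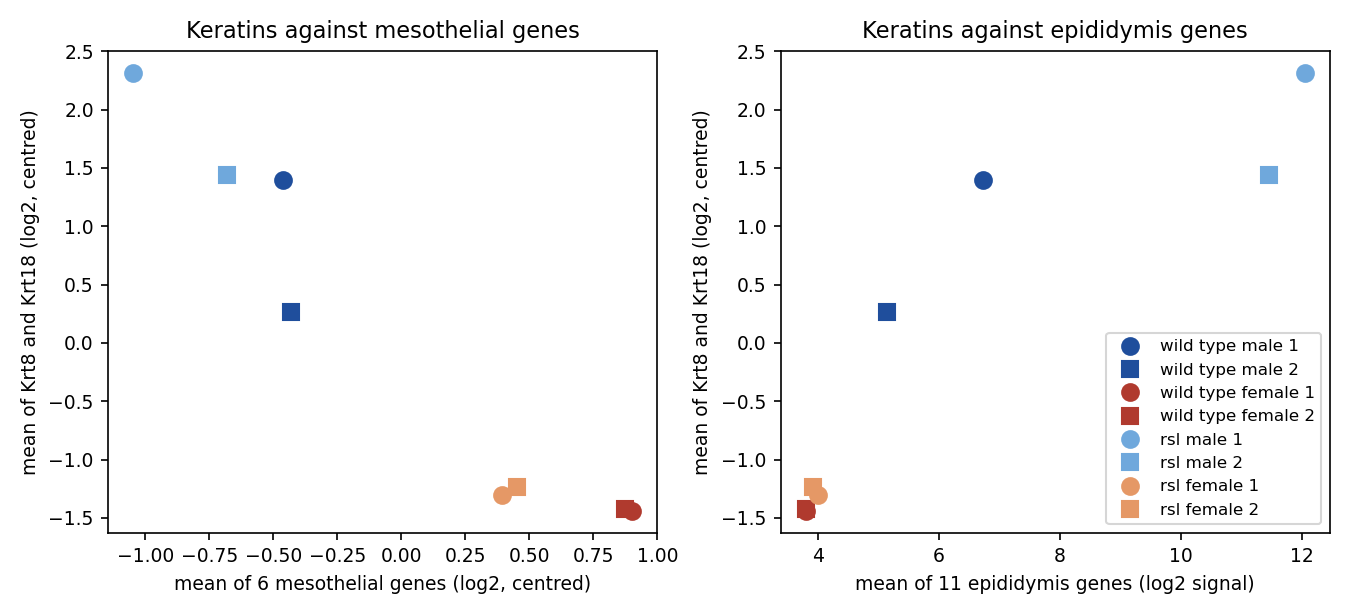
Mean centred log2 signal of Krt8 and Krt18 in each array (vertical axis) against the mean centred signal of the 6 mesothelial genes (left) and the mean log2 signal of 11 epididymis genes (right), with circles for pool 1 and squares for pool 2. The 4 female pools lie together at keratin values from -1.44 to -1.24, and the male pools spread from 0.26 to 2.32.

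Other genes of each kind were taken from lists. Of 16 further genes reported in mesothelial cells, several of them shared with other epithelia or stroma, 7 were lower and 3 higher in males averaged over strains, and 6 did not pass. Over all genes 11.4% were lower and 9.62% higher. The median difference of the 16 was -0.41, against -0.01 over all genes. Bnc1, a zinc finger transcription factor, was lower by 1.69 ± 0.12 (limma adjusted p = 0.000521). Nkain4, which encodes a partner of the sodium and potassium pump, was lower by 0.70 ± 0.08 (limma adjusted p = 0.00233), and Ildr2, which encodes a membrane protein of the immunoglobulin family, by 0.62 ± 0.07 (limma adjusted p = 0.00324). Cldn15, Sulf1, Gpm6a and Rspo1 were lower as well. The 3 that were higher were Slpi, Ezr and Pdpn. Slpi, a protease inhibitor of secretory epithelia, gave 0.92 ± 0.10 (limma adjusted p = 0.00276). Ezr, which links the cell membrane to actin, gave 1.52, and Pdpn, which also marks lymphatic vessels, gave 0.30. The Pdpn difference lay mainly in rsl mice, with group means of 8.79 in males and 8.21 in females, against 8.73 and 8.72 in wild type mice. Krt7, a keratin of mesothelium and glands, gave -0.56 ± 0.33 and did not pass, and Pkhd1l1 was at or below background in every array. Dmkn, Calb2, Aldh1a2 and Bcam did not pass either. Between strains, Nkain4 was lower in rsl males by 1.03 ± 0.11 (limma adjusted p = 0.0149), the 1 of the 16 to pass there, and none passed in females. Over all genes 1.07% were lower in rsl males. Cldn15, Sulf1, Gpm6a, Rspo1, Ezr, Pdpn, Krt7, Pkhd1l1, Dmkn, Calb2, Aldh1a2 and Bcam were named after their values were seen.

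Of 12 general epithelial genes, 11 were higher and none lower in males averaged over strains, with a median of 1.70. Over all genes 9.62% were higher and 11.4% lower. Cldn7, which encodes a tight junction protein, was higher by 4.39 ± 0.42 (limma adjusted p = 0.00161), Spint2, a protease inhibitor, by 2.21 ± 0.24 (limma adjusted p = 0.00231) and Elf3, an epithelial transcription factor, by 1.69 ± 0.23 (limma adjusted p = 0.00532). Cdh1, which encodes E-cadherin, read 8.38 (pool 1) and 6.31 (pool 2) in wild type males and lay at or below background in wild type females. The difference was at least 11.3-fold from the mean of the male pools, at least 23.0-fold from pool 1 and at least 5.52-fold from pool 2. Its average difference passed as well (limma adjusted p = 0.0017). Krt14 was the 1 gene that did not pass, at 0.76. Within wild type mice 3 of the 12 passed, and within rsl mice 10, all higher in males. Over all genes 2.44% were higher in males in wild type mice and 6.49% in rsl mice. The mean of the 12 genes was 7.02 and 5.88 (wild type) and 8.38 and 7.40 (rsl) in the male pools, against 4.86 and 4.81 (wild type) and 5.26 and 5.35 (rsl) in the female pools. The order of the groups was that of Krt8 and Krt18. Between strains in males only Cldn4, a further claudin, passed, higher in rsl by 2.94 ± 0.45 (limma adjusted p = 0.0391). Over all genes 0.704% were higher there.

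**Figure D4:**
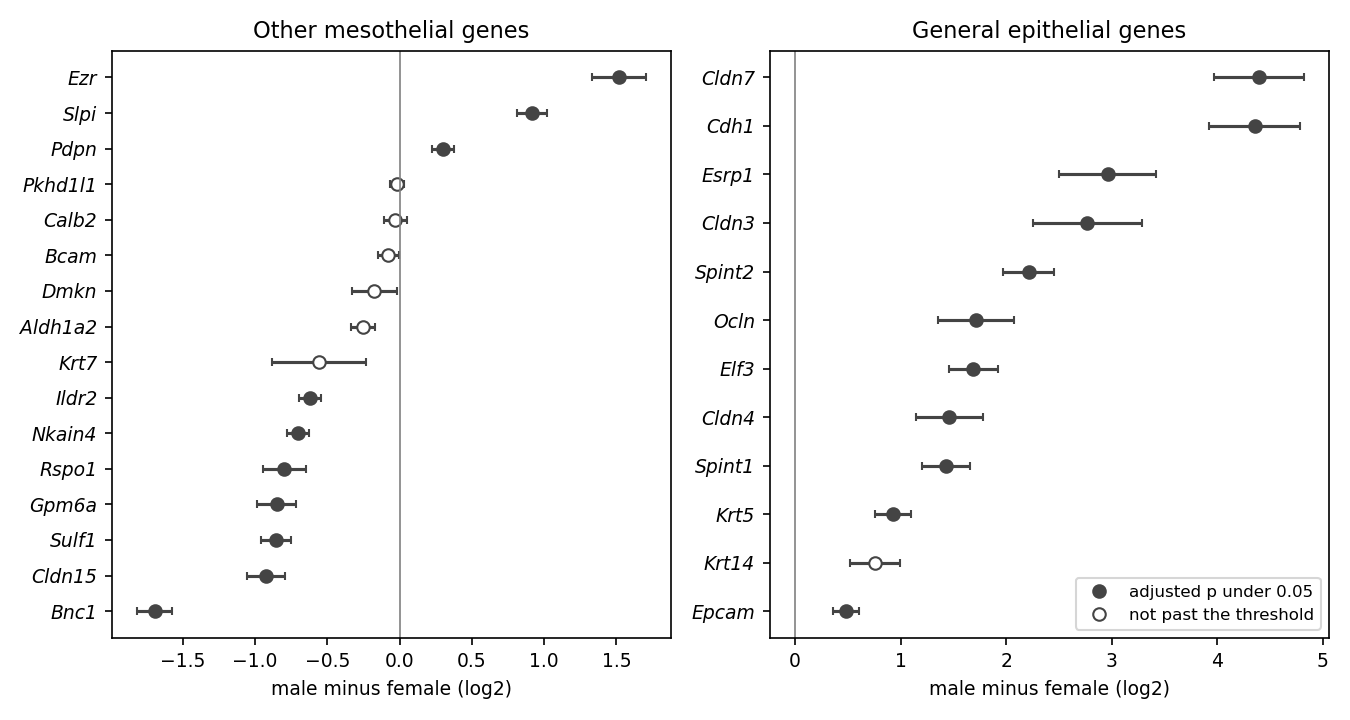
Male minus female log2 difference averaged over the strains for 16 further mesothelial genes and 12 general epithelial genes, with the moderated SE as bars and filled symbols for an adjusted p under 0.05. The general epithelial genes all lie above 0, up to 4.39 for Cldn7, while 13 of the 16 mesothelial genes lie below, down to -1.69 for Bnc1.

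Genes that place a fat depot were compared as well, averaged over strains, where 11.4% of all genes were lower in males and 9.62% higher. Of 6 genes of visceral fat stroma, 4 were lower in males: Wt1 and Bnc1, already given, Gata6, a transcription factor, by 1.21 ± 0.20 (limma adjusted p = 0.0098) and Cd200, a membrane glycoprotein, by 0.44 ± 0.09 (limma adjusted p = 0.0198). The Cd200 difference lay mainly in rsl mice, with group means of 7.52 in males and 8.32 in females, against 8.16 and 8.23 in wild type mice. Tcf21 and Nr2f1 did not pass. Of 5 position genes of subcutaneous fat, 3 were also lower in males: the homeobox genes Hoxc10, by 3.11 ± 0.14 (limma adjusted p = 0.000112), Meis1, by 0.76 ± 0.07 (limma adjusted p = 0.00128), and Shox2, by 0.40 ± 0.05 (limma adjusted p = 0.0047). Tbx15 and En1 did not pass. En1 was at or below background in every array, and Tbx15 in all but rsl male pool 1. The genes that passed on either list were thus higher in the female samples. Which depot was taken from each sex is not given in the labels used here, and the part of the depot in the sex difference was not tested. Of 6 genes of female tract epithelium, averaged over strains, Sprr2f and Muc1 were lower in males, Pax8 and Foxj1 were higher, and Ovgp1 and Wnt7a did not pass. Their mean was 4.06 to 4.12 in wild type females, 4.48 to 4.9965 in males and 4.91 to 4.93 in rsl females. Single genes weigh on this mean. Pax8 read 4.64 to 7.72 in males and 3.75 to 4.18 in females, and Sprr2f read 7.02 to 7.21 in rsl females. In rsl females Sprr2f, a gene of uterine epithelium in the mouse, was at least 9.63-fold higher than in wild type females. Sprr2f and Muc1 were at or below background in the other 3 groups, and the part of these genes in the sex difference was not tested.

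Among 3094 non-member genes with a range of at least 1 log2 unit and a mean above background, the 8 with the profile most like the 6 mesothelial genes were Pcdh18, Fndc1, Colec12, Pamr1, Bnc1, Igfbp6, Fgf1 and Antxr1, with Pearson correlations from 0.996 to 0.987 over the 8 arrays. Pamr1 ran from 5.12 in rsl male pool 1 to 8.18 in wild type female pool 1. Bnc1 is the 1 gene of the mesothelial list among them. The 8 most like the keratin pair were Rnf180, Ehf, Kdf1, Arg2, Ace, Wwc1, Gm3579 and Spint2, with correlations from 0.999 to 0.994. Ehf, an epithelial transcription factor, read 7.46 and 5.84 (wild type) and 8.56 and 7.30 (rsl) in males, and 3.41 to 3.48 in females. The female values of Ehf, Kdf1, Arg2 and Gm3579 were at or below background. Spint2 is the 1 gene of the general epithelial list among them. The 8 arrays are 4 groups, so these correlations mainly describe group levels.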

How the data were processed

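Abdominal white adipose RNA of 4 groups of sex and strain was measured on 8 arrays from 400 ng of RNA each. The authors deposited log2 signals for each probe set, made with RMA (version not stated), per the submitters' processing notes. The other deposited unit is annotation text from the authors, whose table also holds 8 value columns that match no sample label and were not used. The genome build is not given in the sources used here. Of 45141 probe sets, 104 controls were set aside. Names came from RefSeq by accession (34512), symbol (920) or synonym (177), or stayed as deposited (2743). The main probe set of a gene is that with the highest mean. The background bound used controls with GC counts 3 to 24, without GC count 25, a choice made with its values in view. A difference from a group at background was computed against the bound.

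The tests used limma 3.58.1 under R 4.3.3 (1 coefficient per group, constant prior variance, 4 residual and 3 prior degrees of freedom), with two-sided p-values adjusted by Benjamini-Hochberg over all 45037 probe sets and a threshold of 0.05. Intervals are 95% and unadjusted. The code was tested on simulated data. All member probe sets were named, together with up to 4 genes per list with the smallest p, or all that passed where 6 or fewer did. Genes named by likeness were the 8 with the highest correlation for each profile. The members and lists were chosen with earlier results of these data known. Alternatives were other array scalings, filters and variance priors, the groups compared alone, a replicate block, each array left out, and, chosen after seeing the data, scaling to adipocyte genes and no moderation. Arrays give no read depth, and 2 arrays per group limit the precision. Replicate numbers were not used to pair arrays, since the labels give them no shared batch and deviations of same-numbered arrays correlated at -0.05 to 0.11, or 0.35 between the male groups.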

Additional observations from a re-analysis of the deposited data

Results flagged for a closer look

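For Upk1b and Krt19 both rsl pools lay above both wild type pools in males and below them in females. The strain difference in males minus that in females was 0.85 for Upk1b and 1.34 for Krt19 on the log2 scale, and neither passed limma's adjusted threshold for the interaction. For 7 epididymis genes that interaction did pass, with strain differences larger in males by 7.76 for Lcn8, 7.74 for Cst11, 7.39 for Rnase10, 7.35 for Lcn9, 7.35 for Cst12, 6.94 for Cst8 and 6.49 for Adam28. The same test passed in the other direction for Sprr2f, a gene of uterine epithelium, at -3.78. The causes were not tested. Groups of 2 pools allow no check for a pool that stands apart within its group.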

How the results depend on the processing

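The following counts are members past the threshold. For most of these fits the share of all genes that passed is not given here, so the counts cannot be set against it. For the strain difference in males (1 member) the count was 0 in a fit of the male arrays alone, 0 with the replicate block, 0 after quantile normalization, 0 with the mean of a gene's probe sets, and 2 (Krt18 and Krt19 higher) relative to the adipocyte genes. For females (0 members) it was 4 in a fit of the female arrays alone. Leaving out 1 array at a time gave 0 to 8 members for the strain difference in males, 0 in females, 0 to 6 in the average, 1 to 9 for the sex difference in wild type mice, 3 to 8 in rsl mice, 8 to 9 in the average, and 0 to 2 for the interaction. Relative to the keratin mean, with moderation, 1 of 7 genes passed for strain in males and 1 in the average. These counts became 2 and 2 with Krt8 alone as reference, 0 and 0 without moderation, and 5 and 4 with the replicate block, and the average became 0 with Krt18 alone. Leaving out 1 array gave 0 to 6 for both and 0 to 5 for the interaction, which had 0. The causes were not tested. No difference reversed among called values. Single differences kept their call in all 63 cases under median centring, under an intensity trend and with brighter probe sets only. Of the leave-one-out cases 799 kept it, 52 lost it and 45 gained it. Arrays of one number in different groups share only that number, and the block gained 7 and lost 1 of the single calls. All 7 gains were moderated keratin-relative calls, and the loss was that of Muc16 in males. The leave-one-out tally also pools the member differences with the moderated keratin-relative ones. In that moderated fit the subtracted mean puts the same error into every gene, so its calls are not separate evidence.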
